A study of Saccharomyces cerevisiae with 10 samples.

Results

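Here 6 zygotes from a pair of yeast crosses are set against each other, 4 zygotes of the MD893-1 cross and 2 zygotes of the MD893-2 cross, out of 10 diploid isolates in the series. They were chosen by the cross named in their titles. Both crosses had the same second parent, LSY3454-2, and all 6 zygotes, like the HK10 and HK12 isolates that make up the rest of the series (A and B of each name), are labelled as hybrid diploids, W303-1A by YJM789, grown in rich medium (YPD). No drug or other agent is named, and for MD893-1, MD893-2, LSY3454-2 and the HK strains the sources used here give no alleles. The strain entries of the zygotes read MD891 and MD892, so the cross names follow the titles alone. The zygotes are described as independent. The series title concerns sudden genome instability that arises when RNase H2 cuts at ribonucleotides embedded in DNA.

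RNase H2 is the enzyme that opens the DNA strand at single ribonucleotides left behind by DNA polymerases, which starts their removal. When such nicks are not repaired cleanly, a diploid cell can copy sequence from one homolog to the other, and the SNPs in the copied stretch become homozygous, an outcome called loss of heterozygosity. A zygote is the cell formed when haploids of opposite mating type fuse, so a hybrid zygote starts with both parental alleles at each SNP. Whole-chromosome gain or loss is the other large change that a SNP array can read.

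Each array carries up to 4 probes per SNP, 1 for each allele on each strand, and the probes are lettered S or Y. The labels do not say which parent a letter stands for. The zygote's DNA was hybridised together with DNA of the control diploid JSC24, and a probe's value is the log2 ratio of zygote to control, centred on the median of its array. The S level and the Y level of a SNP are the means of that allele's probes. S minus Y is near 0 where both alleles are held as in the control, and lies far from 0 where 1 allele is gone. As a scale for a lost allele, the median S minus Y of chromosome XII was -3.07 in HK10 A and -3.08 in HK10 B, against -0.04 in HK12 A. Both alleles could be read at 13461 SNPs, a median of 368 bp apart, and 11939 of them had values in all 6 zygotes.

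The arrays of the crosses differed in quality, and this touches every comparison below. Probes without a value made up 1.13%, 0.857%, 3.52% and 3.99% of 53664 probes in MD893-1 zygotes 1 to 4, against 10.5% and 10.1% in MD893-2 zygotes 1 and 2. An allele rested on a single strand probe at 6.50% to 12.6% of SNPs in the MD893-1 zygotes, against 24.1% and 24.3% in the MD893-2 zygotes. Both MD893-2 arrays lay above all 4 MD893-1 arrays on these measures. The noise of S minus Y over SNPs (scaled median absolute deviation) was 0.14 to 0.19 in the MD893-1 zygotes, against 0.18 and 0.28 in the MD893-2 zygotes. Precision is limited by the number of arrays, and array quality and cross cannot be told apart.

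Heterozygosity was retained along nearly the whole genome in both crosses. SNPs with an absolute S minus Y under 1.5 were counted as heterozygous. They made up 99.86%, 99.84%, 99.87% and 99.81% of the SNPs read in MD893-1 zygotes 1 to 4, against 99.51% and 99.40% in MD893-2 zygotes 1 and 2. Every MD893-1 zygote lay above both MD893-2 zygotes. The means were 99.84% ± 0.027 (SD, n = 4) in the MD893-1 zygotes and 99.45% ± 0.076 (SD, n = 2) in the MD893-2 zygotes, 0.394 percentage points apart, which exceeds the SD of each cross. An exact permutation test, two-sided, returned p = 0.133. With 15 ways to split the zygotes 4 against 2 no lower p is possible, so the design could not reach the 0.05 threshold.

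The SNPs not counted as heterozygous were few and scattered. The MD893-1 zygotes had 19, 21, 17 and 25 of them, against 61 and 75 in the MD893-2 zygotes. Between 13 and 18 per zygote lay in the 3 loci on chromosomes II, V and XV described below, which departed in all 6 zygotes. At the V and XV loci 1 allele was raised against the control, so an absolute S minus Y of 1.5 there need not mark a lost allele. Elsewhere the counts were 3, 3, 4 and 9 in the MD893-1 zygotes, against 47 and 58 in the MD893-2 zygotes. Of these, 2, 2, 3 and 7 had an allele lowered by at least 1 in the MD893-1 zygotes, against 45 and 41 in the MD893-2 zygotes. In no zygote were neighbouring SNPs both non-heterozygous in the same direction outside those 3 loci. Thus no stretch of even 2 SNPs with the same allele lost was seen there in either cross. Neighbours departing in opposite directions were not counted.

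Most of the scattered SNPs rested on single probes. In MD893-2 zygotes 1 and 2, 39 of the 47 and 53 of the 58 had an allele read by 1 probe, a share of 83.0% and 91.4%, against the 24.1% and 24.3% of all SNPs given above. The direction was balanced, with S minus Y up at 24 and down at 23 in zygote 1, and up at 29 and down at 29 in zygote 2. Over SNPs with all 4 probes read, a restriction chosen after the values were seen, heterozygosity averaged 99.88% ± 0.016 (SD, n = 4) in the MD893-1 zygotes and 99.81% ± 0.022 (SD, n = 2) in the MD893-2 zygotes. The difference was then 0.069 percentage points, and the exact permutation p was again 0.133.

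**Figure D1:**
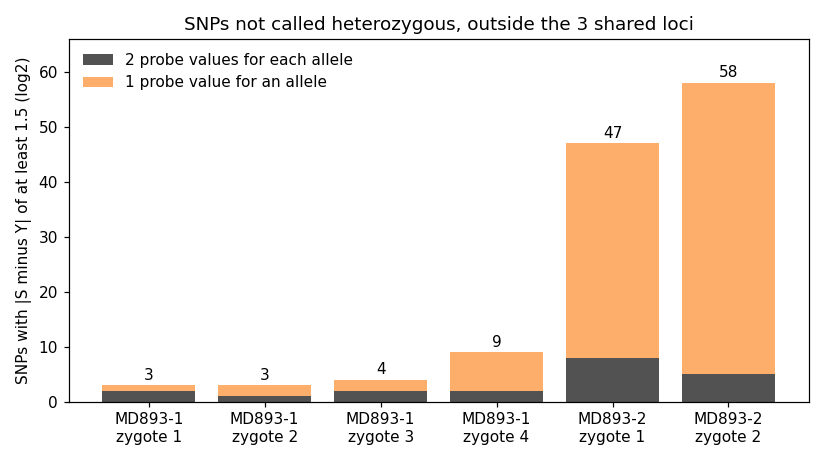
Number of SNPs per zygote (vertical axis) with an absolute S minus Y of at least 1.5 on the log2 scale outside the loci on chromosomes II, V and XV, split by whether an allele was read by 1 probe. The MD893-1 zygotes, on the left, had 3 to 9 such SNPs and the MD893-2 zygotes 47 and 58, most of them with an allele read by 1 probe.

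All chromosomes of a zygote had nearly the same signal. The signal of a chromosome is the median over its SNPs of the mean of both alleles, and it moves with the number of copies. Over the 16 chromosomes it lay between -0.05 and 0.02 in the MD893-1 zygotes and between -0.03 and 0.02 in the MD893-2 zygotes. Chromosome I had the lowest signal in all 4 MD893-1 zygotes (-0.05, -0.03, -0.03 and -0.02) and in MD893-2 zygote 1 (-0.02), while in MD893-2 zygote 2 chromosome VIII was lowest at -0.03. For comparison, the same chromosome I stood at 0.63 to 0.70 in the 4 HK isolates.

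The signal differed between crosses by at most 0.02 on any chromosome. The largest differences were on IX, with means of -0.02 ± 0.01 in the MD893-1 zygotes and -0.00 ± 0.01 in the MD893-2 zygotes (SD, n = 4 and n = 2), on XIII, with 0.01 ± 0.01 and -0.01 ± 0.01, and on I, with -0.03 ± 0.01 and -0.02 ± 0.00 in the same order of crosses. With limma over the 16 chromosomes, 0 passed an adjusted p of 0.05 (0%), and 1, chromosome XIII, had an unadjusted p under 0.05 (adjusted p = 0.275). The exact permutation test could call none here, as its lowest possible two-sided p is 0.133.

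The balance of the homologs was even along each zygote's genome, with 1 zygote offset as a whole. Median S minus Y per chromosome spanned 0.03 to 0.04 in each MD893-1 zygote, against 0.04 and 0.06 in the MD893-2 zygotes. In MD893-2 zygote 1 every chromosome was low, from -0.14 on III to -0.11 on IV, whereas the other 5 zygotes lay between -0.03 and 0.05. The array median of S minus Y was -0.13 in MD893-2 zygote 1, against 0.02 in MD893-2 zygote 2, and was -0.01 to 0.01 in the MD893-1 zygotes. The offset was shared by all 16 chromosomes of that array.

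The differences between crosses in S minus Y were largest on XII (0.07), III (0.07) and VIII (0.06), and followed that 1 array. With limma over 16 chromosomes, 0 passed an adjusted p of 0.05 (0%) and 0 had an unadjusted p under 0.05. Without MD893-2 zygote 1, 3 chromosomes were called, all lower in the MD893-1 zygotes, and the differences of III and VIII turned to -0.02 and -0.01. Without MD893-2 zygote 2, all 16 were called higher in the MD893-1 zygotes.

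**Figure D2:**
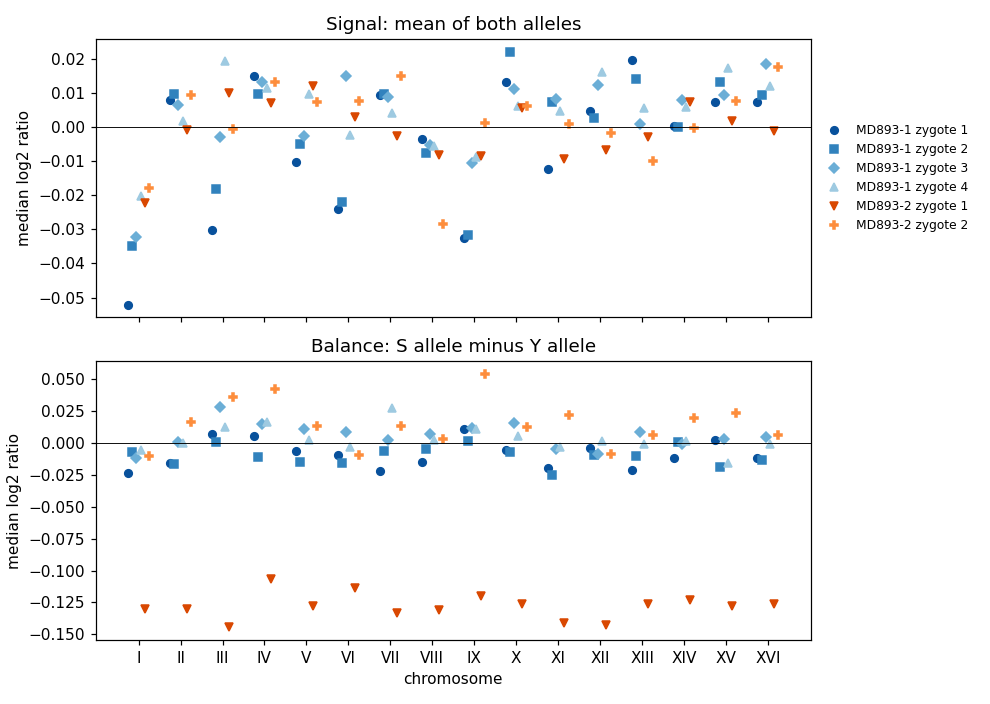
Median log2 ratio of each of the 16 chromosomes (horizontal axis) in each zygote, as signal (upper panel) and as S minus Y (lower panel), with MD893-1 zygotes in blue to the left and MD893-2 zygotes in orange. All signals lie between -0.05 and 0.02, and MD893-2 zygote 1 lies below the other zygotes in S minus Y on every chromosome.

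Short runs, in which 1 allele departed by at least 1 on the log2 scale at 2 to 4 SNPs in a row, were few in both crosses. There were 2, 3, 2 and 3 in MD893-1 zygotes 1 to 4, against 3 and 3 in MD893-2 zygotes 1 and 2. Most of these runs were those at the chromosome V and XV loci described below, which departed in all 6 zygotes. In MD893-1 zygote 2 the chromosome V run held 5 SNPs and so was not counted as short. MD893-1 zygotes 1 and 3 had no short run outside those loci. The means were 2.5 ± 0.577 (SD, n = 4) in the MD893-1 zygotes and 3.0 ± 0 (SD, n = 2) in the MD893-2 zygotes, or -0.5 apart (exact two-sided permutation p = 0.8). With a departure of 0.75 in place of 1, the counts were 3, 2, 3 and 3 in the MD893-1 zygotes, against 6 and 7 in the MD893-2 zygotes. Both MD893-2 zygotes then lay above all MD893-1 zygotes, by a difference of -3.75 (exact two-sided permutation p = 0.133, the lowest possible). With a departure of 1.5, the counts were 3, 2, 2 and 2 against 0 and 1 and the difference turned to 1.75. It also turned, to 0.5, when an unmeasured SNP ended a run, and to 0.75 when every probe of the allele had to depart.

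Over the zygotes these runs, with those of 5 or more SNPs, fell into 8 places. Of them, 3 departed in all 6 zygotes, 5 in a single zygote, and 0 in one cross only. At a departure of 1, no run was seen in several zygotes of one cross and none of the other. Positions are given as in the deposited table, whose genome build is not given in the sources used here, so no gene, exon or UTR was assigned to them.

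The largest of the shared loci was a loss of S signal on chromosome II, from 469650 to 474265, at 9 consecutive SNPs. The median S level over the 9 was -2.76, -2.58, -3.14 and -3.31 in MD893-1 zygotes 1 to 4, against -3.58 and -3.71 in MD893-2 zygotes 1 and 2. Both MD893-2 zygotes lay below all 4 MD893-1 zygotes. Such a separation of the crosses, in either direction, was common, at 4262 of 13021 single SNPs tested for S (32.7%). The means at the locus were -2.95 ± 0.33 (SD, n = 4) in the MD893-1 zygotes and -3.65 ± 0.09 (SD, n = 2) in the MD893-2 zygotes, or 0.70 apart (exact two-sided permutation p = 0.133, the lowest possible). All probes gave a value, 72 of 72 in the MD893-1 zygotes and 36 of 36 in the MD893-2 zygotes. On the linear scale the mean levels are ratios of zygote to control of 0.130 in the MD893-1 zygotes and 0.0799 in the MD893-2 zygotes. The Y level at these SNPs averaged -0.23 ± 0.05 in the MD893-1 zygotes and -0.20 ± 0.19 in the MD893-2 zygotes (SD, n = 4 and n = 2; exact two-sided permutation p = 0.8). The 4 HK isolates had the same loss, with an S level of -3.64 to -3.07.

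The S level was not equal along that locus. The SNP at 470590 was the shallowest in all 4 MD893-1 zygotes (-1.10, -1.08, -1.43 and -2.11) and in both MD893-2 zygotes (-2.50 and -2.07). The SNP at 473586 was the deepest in all 4 MD893-1 zygotes (-3.10, -3.35, -4.07 and -4.26) and in MD893-2 zygote 1 (-5.44), but not in MD893-2 zygote 2 (-3.76). The neighbouring SNPs on either side lay near 0.

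At the locus on chromosome V, from 31251 to 33770, the Y allele was raised while the median S level stayed close to 0. The median Y level was 1.96, 1.90, 1.57 and 1.64 in MD893-1 zygotes 1 to 4, against 1.14 and 1.73 in MD893-2 zygotes 1 and 2. The groups overlapped, as MD893-2 zygote 2 lay within the range of the MD893-1 zygotes. The means were 1.77 ± 0.19 (SD, n = 4) in the MD893-1 zygotes and 1.44 ± 0.42 (SD, n = 2) in the MD893-2 zygotes (exact two-sided permutation p = 0.4). As mean ratios of zygote to control these are 3.40 in the MD893-1 zygotes and 2.71 in the MD893-2 zygotes. The S level averaged 0.14 in both crosses (SD 0.05, n = 4, and 0.04, n = 2).

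The chromosome V locus was thinly read. Of its Y probe values, 23 of 48 were present in the MD893-1 zygotes and 11 of 24 in the MD893-2 zygotes, so that the run held 2 to 5 SNPs depending on the zygote. At its first SNP the S level was low in all zygotes, at -0.79 to -0.67 in the MD893-1 zygotes and -0.83 to -0.81 in the MD893-2 zygotes, beside a Y level of 1.29 to 2.20 and of 0.97 and 1.14. The HK isolates had a median Y level of 0.81 to 1.5 there, overlapping the range of the MD893-2 zygotes, with fewer probe values (12 of 48).

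At the locus on chromosome XV, from 370120 to 371629, the S allele was raised and the Y allele lowered. The median S level was 1.66, 1.37, 1.46 and 1.64 in MD893-1 zygotes 1 to 4, against 1.35 and 1.72 in MD893-2 zygotes 1 and 2. The crosses overlapped fully, with means of 1.53 ± 0.14 (SD, n = 4) in the MD893-1 zygotes and 1.53 ± 0.25 (SD, n = 2) in the MD893-2 zygotes (exact two-sided permutation p = 1). The Y level averaged -0.69 ± 0.08 in the MD893-1 zygotes and -0.60 ± 0.13 in the MD893-2 zygotes (SD, n = 4 and n = 2; exact two-sided permutation p = 0.4). Here both alleles had moved, in opposite directions. The HK isolates had an S level of 0.53 to 1.53 and a Y level of -0.81 to -0.75. Of the S probe values at this locus, 29 of 40 were present in the MD893-1 zygotes and 15 of 20 in the MD893-2 zygotes. The HK isolates had 19 of 40, and the lowest level, in HK10 B, rested on 2 of the 5 SNPs.

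**Figure D3:**
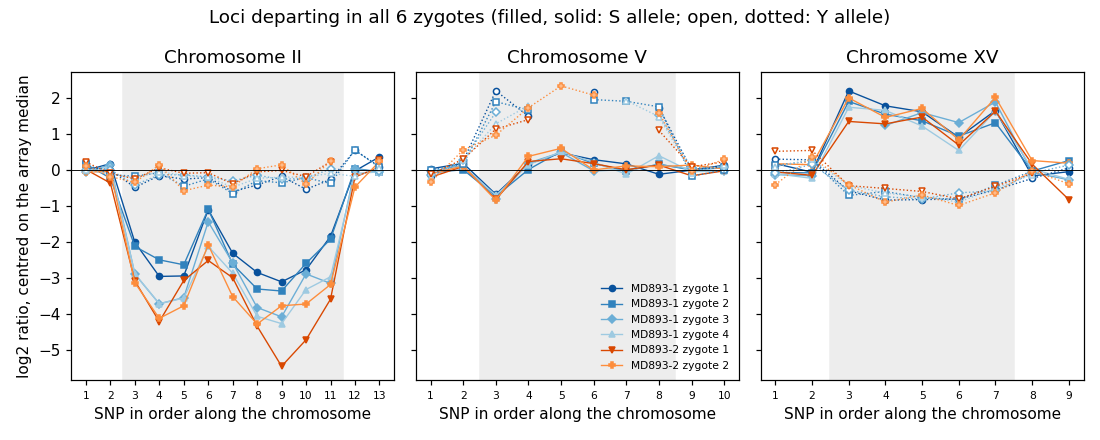
Log2 ratio of the S allele (filled symbols, solid lines) and the Y allele (open symbols, dotted lines) at the SNPs of the 3 loci that departed in all 6 zygotes (shaded) and at SNPs beside them, in order along chromosomes II, V and XV. S falls on II in all zygotes, Y is high on V, and on XV S is high while Y is low, with MD893-1 zygotes in blue and MD893-2 zygotes in orange.

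With the departure set at 0.75, further places appeared. On chromosomes III, IV, VII, XII and XV, 7 new runs of Y were each seen in a single MD893-2 zygote, and inside the chromosome XV locus a run of low Y from 370173 to 371387 was seen in MD893-1 zygotes 1 and 2. The new place seen in zygotes of both crosses was on chromosome IV, from 43838 to 46597, in MD893-1 zygotes 1 to 3 and both MD893-2 zygotes. The median Y level over its 5 SNPs was 0.73, 0.76, 0.75 and 0.71 in MD893-1 zygotes 1 to 4, against 0.89 and 0.92 in MD893-2 zygotes 1 and 2. The MD893-2 zygotes lay above all MD893-1 zygotes, with means of 0.74 ± 0.02 (SD, n = 4) in the MD893-1 zygotes and 0.91 ± 0.03 (SD, n = 2) in the MD893-2 zygotes, or -0.17 apart (exact two-sided permutation p = 0.133, the lowest possible). Over single SNPs tested for Y, 4048 of 12403 (32.6%) also separated the crosses, in either direction. The S level at the chromosome IV place was 0.16 ± 0.09 in the MD893-1 zygotes and 0.13 ± 0.03 in the MD893-2 zygotes (SD, n = 4 and n = 2). In the HK isolates the Y level was 0.39 to 0.63.

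At a departure of 1, the best supported run of a single zygote was on chromosome VIII. In MD893-1 zygote 2, S was raised at 5 consecutive positions from 215271 to 216113, at which the table holds only S probes, with levels of 1.14, 1.36, 0.87, 1.03 and 1.42. The third fell short of a departure of 1, so that the positions formed 2 short runs. All 10 probes were read in each zygote. The median S level was 0.03, 1.14, 0.09 and 0.22 in MD893-1 zygotes 1 to 4, against -0.20 and 0.53 in MD893-2 zygotes 1 and 2. After MD893-1 zygote 2, the next highest was MD893-2 zygote 2, where the first SNPs of the stretch stood at 0.86 and 0.94. The HK isolates differed by name at this place, with 0.68 and 0.62 in HK10 A and B, against -0.69 and -0.67 in HK12 A and B. The crosses overlapped there (means of 0.37 ± 0.52 in the MD893-1 zygotes and 0.17 ± 0.51 in the MD893-2 zygotes, SD, n = 4 and n = 2; exact two-sided permutation p = 0.933).

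The other 3 runs of a single zygote rested on 2 or 3 probe values each. On chromosome XII, at 786321 and 786322, S stood at -1.45 and -1.83 in MD893-1 zygote 4, and in MD893-2 zygote 1 the SNP of the pair that was read stood at -1.11. On chromosome II, from 238069 to 238120, S stood at 1.51 and 1.17 in MD893-2 zygote 2. On chromosome IV, at 1152929 and 1152992, Y stood at -1.43 and -1.16 in MD893-2 zygote 1. MD893-1 zygotes 1 and 3 had no run of their own.

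At single SNPs, most departures were seen in 1 zygote alone. An allele departed by at least 1 in some zygote at 476 positions, 185 of 13608 for S and 291 of 13590 for Y. Of these, 54 departed in 1 MD893-1 zygote alone and 375 in 1 MD893-2 zygote alone, while 13 departed in all 6. In both MD893-2 zygotes and no MD893-1 zygote, 11 positions departed, of which 7 went the same way in both. Only 1 of the 11 had 2 probes read in both, Y at 46079 on chromosome IV. There the MD893-1 zygotes stood just under the threshold, at 0.78, 0.96, 0.96 and 0.91. In at least 2 MD893-1 zygotes and no MD893-2 zygote, 2 departed, and at both of these the MD893-2 zygotes had no value.

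The strand probes of an allele give a second reading of it. Where both were read, 1 departed and the other did not at 20, 24, 26 and 54 alleles in MD893-1 zygotes 1 to 4, against 170 and 500 in MD893-2 zygotes 1 and 2. Both departed together in some zygote at 32 positions, 20 of them in the places above found at a departure of 1. The other 12 were single SNPs, 11 for S and 1 for Y, and those named here were chosen after their values were seen.

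Several of these SNPs departed in zygotes of both crosses by the mean of their probes. Both strand probes departed in zygotes of both crosses only at the first below, on chromosome XII. They did so in MD893-2 zygote 1 alone at the IX SNP, MD893-1 zygote 4 alone at the XV SNP and MD893-2 zygote 2 alone at the XIII SNP. At the XV SNP, MD893-2 zygote 1 was read by 1 probe. On chromosome XII at 1027553, S stood at -2.30, 0.03, -2.66 and 0.00 in MD893-1 zygotes 1 to 4, against -0.26 and -3.23 in MD893-2 zygotes 1 and 2. On chromosome IX at 230665, S stood at 0.18, -0.97, 0.05 and -1.51 in MD893-1 zygotes 1 to 4, against -1.99 and 0.18 in MD893-2 zygotes 1 and 2. The low zygotes thus came from both crosses at either SNP, and were different ones at each. On chromosome XV at 233880, S stood at 0.08, -0.84, 0.07 and -1.59 in MD893-1 zygotes 1 to 4, against -1.64 and 0.18 in MD893-2 zygotes 1 and 2. On chromosome XIII at 541703, S stood at -0.77, -0.08, -1.21 and -0.46 in MD893-1 zygotes 1 to 4, against -0.85 and -1.86 in MD893-2 zygotes 1 and 2. The low zygotes at XV were those low at IX, and the lowest zygotes at XIII were among those low at XII.

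Departures of a single zygote were also found. On chromosome XVI at 669211, S was -2.44 in MD893-1 zygote 2, with both strand probes low (-1.94 and -2.94), and lay between -0.07 and 0.05 in the other 5 zygotes. On chromosome XIII at 209437, S was -2.62 in MD893-2 zygote 1 and between -0.27 and 0.12 in the 3 MD893-1 zygotes that were read. At the chromosome XVI SNP the Y level was between -0.24 and 0.10 in all zygotes, so that only the S reading had moved. Over the 6 zygotes, the SNPs on either side had S levels of -0.16 to 0.78 at the chromosome XVI place and -0.31 to 0.75 at the chromosome XIII place.

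**Figure D4:**
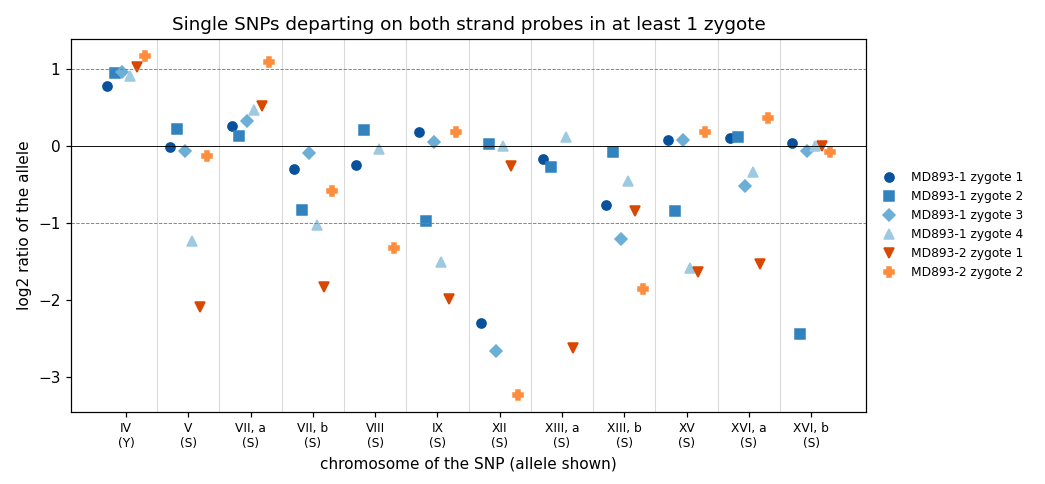
Log2 ratio (vertical axis) of the named allele in each zygote at the 12 single SNPs where both strand probes departed by at least 1 in some zygote, labelled by chromosome, with dashed lines at -1 and 1. The low values on XII fall in MD893-1 zygotes 1 and 3 and MD893-2 zygote 2, and those on IX and XV in MD893-1 zygotes 2 and 4 and MD893-2 zygote 1.

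Compared SNP by SNP, few sites differed between the crosses in S minus Y. With limma over 11939 SNPs, 24 passed an adjusted p of 0.05 (0.201%), 13 higher (0.109%) and 11 lower (0.0921%) in the MD893-1 zygotes. With S minus Y centred on each array, a choice made after seeing the data, 17 were called, 5 higher and 12 lower. No called SNP had a called neighbour that moved the same way, and the 24 were spread over 12 chromosomes. Of the 24, 23 had an allele read by 1 probe in an MD893-2 zygote (95.8%), against 29.5% of all SNPs tested. Where both strand probes of both alleles were read in all 6 zygotes, 0 of 8335 SNPs passed, with 1079 at an unadjusted p under 0.05.

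The count depended on every array. Without MD893-1 zygotes 1, 2, 3 and 4 in turn, limma called 0, 2, 2 and 5 SNPs (the fit with 0 had 1801 at an unadjusted p under 0.05), and without MD893-2 zygotes 1 and 2 in turn it called 505 and 201. In the last 2 fits the remaining MD893-2 zygote was assumed to vary as the MD893-1 zygotes do.

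The levels of the single alleles gave more calls, of small size. For S, 219 of 13021 SNPs passed limma's adjusted p of 0.05 (1.68%), 171 higher (1.31%) and 48 lower (0.369%) in the MD893-1 zygotes, with a median absolute difference of 0.52. For Y, 371 of 12403 passed (2.99%), 122 higher (0.984%) and 249 lower (2.01%), with a median absolute difference of 0.49. Differences of at least 1 were seen at 7 of the S calls and 12 of the Y calls. The directions of S and Y were opposed, as was the median over all SNPs tested, at 0.03 for S and -0.03 for Y. That median followed MD893-2 zygote 1, the array offset as a whole. Without it the median was -0.009 for S and 0.006 for Y, and without MD893-2 zygote 2 it was 0.065 and -0.067. Only 6 of the 219 and 22 of the 371 had a called neighbour that moved the same way. Where both strand probes of the allele were read in all 6 zygotes, 312 of 10527 SNPs passed for S (2.96%) and 547 of 10058 for Y (5.44%).

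Opposite changes of both alleles were not among the calls. S and Y were both called at 19 SNPs, and at all 19 they moved the same way. Each of the 24 SNPs called for S minus Y was also called for S or Y. Counts for single alleles again moved with each MD893-1 array. Without zygotes 1, 2, 3 and 4 in turn they were 8, 10, 21 and 92 for S and 4, 55, 62 and 205 for Y. Without MD893-2 zygotes 1 and 2 in turn they were 1215 and 225 for S and 1291 and 266 for Y.

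The largest difference in S minus Y among SNPs called for either allele or for S minus Y was on chromosome V at 436520. S stood at -0.26, -0.18, 0.12 and 0.33 in MD893-1 zygotes 1 to 4, against -1.52 and -1.31 in MD893-2 zygotes 1 and 2. S minus Y was higher in the MD893-1 zygotes by 1.94 ± 0.17 (SE; limma adjusted p = 0.00312). In both MD893-2 zygotes S was read there by 1 probe, and the difference at the SNPs on either side, 692 and 227 bp away, was 0.01 and -0.03.

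At 666690 on chromosome II the picture was alike. S stood at 0.37, 0.43, 0.24 and 0.25 in MD893-1 zygotes 1 to 4, against -1.42 and -0.92 in MD893-2 zygotes 1 and 2, each of which read it by 1 probe. The difference in S minus Y was 1.58 ± 0.14 (SE; limma adjusted p = 0.00312). On chromosome XIV at 21272 it was Y that was low in the MD893-2 zygotes, at -2.23 and -0.97, against -0.09, -0.20, -0.21 and -0.34 in the MD893-1 zygotes. The lower of these values, in MD893-2 zygote 1, was read by 1 probe, and that of MD893-2 zygote 2 by 2. The difference in S minus Y was -1.50 ± 0.22 (SE; limma adjusted p = 0.0406), and it missed the threshold without any 1 of the MD893-1 zygotes (adjusted p of 0.0703 to 0.127).

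The other 7 of the 10 largest were called for 1 allele and not for S minus Y. They lay at 339428 on chromosome X, 457494 and 86889 on XIII, 439574 on XI, 607299 on IV, 473958 on II and 778595 on VII. Their absolute differences were between 1.14 and 1.60. Only the chromosome II SNP, inside the shared locus at which S is lost in all zygotes, had both probes of both alleles read in all 6 zygotes, with S at -2.76, -2.58, -2.88 and -3.31 in MD893-1 zygotes 1 to 4, against -4.70 and -3.71 in MD893-2 zygotes 1 and 2 (difference 1.33 ± 0.25, SE; limma adjusted p = 0.0351). Across the SNPs next to the 10, the absolute difference between crosses had a median of 0.17.

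**Figure D5:**
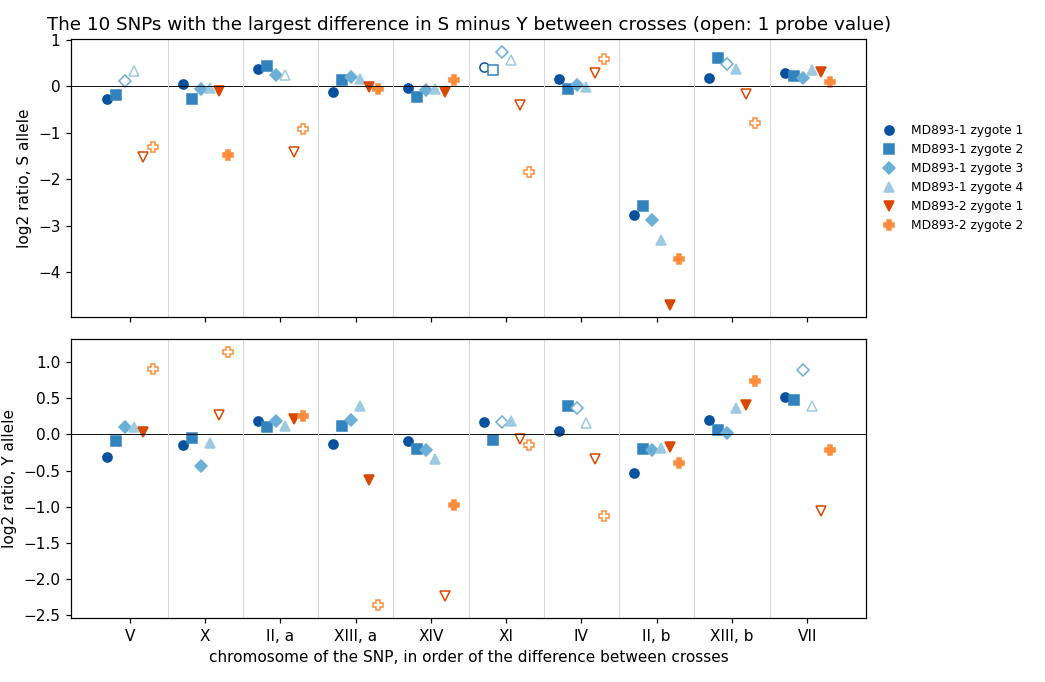
Log2 ratio of the S allele (upper panel) and the Y allele (lower panel) in each zygote at the 10 SNPs with the largest difference in S minus Y between crosses, labelled by chromosome, with MD893-1 zygotes in blue left of MD893-2 zygotes in orange and open symbols where 1 probe was read. At V the S level is -0.26 to 0.33 in the MD893-1 zygotes, against -1.52 and -1.31 in the MD893-2 zygotes, both open.

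The likeness of zygotes within and across crosses covered overlapping ranges. Over 11924 SNPs, the correlation of S minus Y between zygotes (Pearson's r across SNPs, which share probes and one control DNA and are not independent) was -0.09 to 0.56 for the 6 pairs of MD893-1 zygotes, 0.37 for the MD893-2 pair and -0.09 to 0.44 for the 8 pairs across crosses. The lowest values of both kinds involved MD893-1 zygote 2. For the signal the correlations were 0.40 to 0.75 among MD893-1 zygotes, 0.69 for the MD893-2 pair and 0.26 to 0.61 across crosses. No test was made of these correlations.

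At positions where the table holds probes of 1 allele only, 147 for S and 129 for Y, levels were close to 0. The median S level over the 147 was 0.06, -0.01, 0.01 and 0.00 in MD893-1 zygotes 1 to 4, against -0.12 and -0.03 in MD893-2 zygotes 1 and 2. The median Y level over the 129 was -0.02 to 0.01 in the MD893-1 zygotes, against 0.09 and -0.01 in the MD893-2 zygotes. Of the S positions, 58 form the right end of chromosome I, from 209458 to 218475, where the S level was between -0.05 and 0.07 in the MD893-1 zygotes, against -0.00 and 0.05 in the MD893-2 zygotes. The HK isolates stood at 0.33 to 0.46 there.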

How the data were processed

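Genomic DNA of each isolate carried Cy5 and that of the control diploid JSC24 carried Cy3, per the labels. For every probe on an array the authors deposited a single linear ratio, isolate over control. Each array's ratios average 1, as tested on the table. The sources used here give no feature filter, background correction, dye normalization or genome build. When positions were set against coding genes of the RefSeq annotation in hand, 33.4% fell on the last base of a codon, so no gene was placed.

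The log2 of each ratio minus its array's median was used, without loess. Strand probes of an allele were averaged. Differences (MD893-1 minus MD893-2) were fitted with limma 3.58.1 in R 4.3.3 (lmFit, eBayes, Benjamini-Hochberg over all SNPs with a value in all 6 zygotes, or over 16 chromosomes). Percent heterozygous (absolute S minus Y under 1.5) and runs (absolute log2 of at least 1 at 2 to 4 SNPs in a row) were compared by exact permutation, two-sided, over 15 splits. Both steps were tested on simulated data. Pandas 2.3.3 and SciPy 1.17.1 did the rest.

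The text names runs in all 6 zygotes, runs of a single zygote, the 10 called SNPs with the largest difference in S minus Y and the 3 chromosomes with the largest differences. Members, lists and rules were chosen with earlier results of these data known. The HK isolates entered no test. Alternatives left out each zygote, used the zygote number as a block, and changed filters, centring, thresholds and array weights.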

Additional observations from a re-analysis of the deposited data

Results flagged for a closer look

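Over the 4 MD893-1 zygotes, 95 measures were screened for a lone zygote, by its gap to the nearest value relative to the range, and 5 stood out. Chance alone sets about 1 in 20 such groups apart, but this rate does not hold for the chromosome XVI and VIII SNPs below. Those entered the screen because both strand probes departed there in zygote 2, so that their outcome was set by the choice. The S level at 669211 on chromosome XVI was -2.44 in zygote 2 and -0.06 to 0.05 in the others. The S level at 215271 on chromosome VIII was 1.14 in zygote 2 and 0.12 to 0.22 in the others. Zygote 4 had 9 non-heterozygous SNPs outside the shared loci, while the others had 3 to 4. The median S minus Y of chromosome IX was 0.00162 in zygote 2 and 0.01 in the others. S minus Y at 457494 on chromosome XIII was -0.22 in zygote 4 and between -0.00 and 0.01 in the others.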

How the results depend on the processing

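Counts of SNPs called between crosses moved most. With the zygote number as a replicate block, limma called 54 SNPs for S minus Y, 204 for S, 212 for Y and 5 chromosomes for signal. The titles only number the zygotes within each cross. Over 2 same-numbered pairs, the correlations of the zygotes' deviations were -0.22 and -0.22 for S minus Y and 0.08 and -0.13 for signal. The deviations of the 2 MD893-2 zygotes mirror each other, so these correlations cannot show whether equal numbers belong together. With array weights the counts were 3 for S minus Y, 135 for S and 110 for Y. With both strand probes required they were 0 for S minus Y, but 312 for S and 547 for Y. Leaving out 1 zygote gave 0 to 505 SNPs for S minus Y, 8 to 1215 for S and 4 to 1291 for Y, and 0 to 16 chromosomes for S minus Y and 0 to 0 for signal. With the mean in place of the median, 2 chromosomes were called for signal, both higher in the MD893-1 zygotes, and the difference of chromosome I turned to 0.00473. Without 1 zygote, the difference in S minus Y was -0.0238 to 0.16 on III and -0.00578 to 0.13 on VIII, negative without MD893-2 zygote 1. The difference in runs was -3.75 with a departure of 0.75, and turned to 1.75 with a departure of 1.5, to 0.5 where an unmeasured SNP ended a run and to 0.75 where every probe had to depart, and was -0.67 to -0.33 without 1 zygote. The difference in percent heterozygous kept its direction in all 11 alternatives, from 0.069 with 4 probes read to 1.14 with a threshold of 1, and was 0.340 to 0.448 without 1 zygote. The cause of these shifts was not tested. Probes without a value and the number of arrays limit all counts for the MD893-2 zygotes.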
